A study of Chenopodium quinoa with 24 samples.

Results

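Rubisco, the enzyme that fixes carbon dioxide in the chloroplast, is built from a large subunit encoded in the chloroplast genome and a small subunit encoded by a family of nuclear RBCS genes. Rubisco activase (RCA), also encoded in the nucleus, removes inhibitory sugar phosphates from the active sites of Rubisco and is known as a heat-sensitive protein of leaf photosynthesis. RBCS and RCA transcripts are among the most abundant messenger RNAs of green leaves, and both families are known to respond to light and the circadian clock. The quinoa transcripts examined here are those whose best Arabidopsis match, cut to the locus, is one of the small subunit genes RBCS1A (AT1G67090), RBCS1B (AT5G38430), RBCS2B (AT5G38420) and RBCS3B (AT5G38410) or the activase gene RCA (AT2G39730). Of the 44776 transcripts in the table, 11 met this rule. There were 9 RBCS copies, and for all 9 the best match was AT1G67090. The loci AT5G38430, AT5G38420 and AT5G38410 were the best match of 0 transcripts. The RCA locus AT2G39730 was the best match of 2 transcripts. All 11 transcripts were tested in all 6 comparisons of the study, so no copy was lost to the filter on low counts. In Arabidopsis a longer and a shorter activase arise by alternative splicing. The table lists 1 transcript for each quinoa copy, so such forms were not separated.

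The study asked how heating of roots or shoots at flowering affects quinoa, a grain crop of the amaranth family, and its leaf RNA came from 24 plants of accession QQ74 (PI 614886), 3 plants in each of 8 groups. In the control the whole plant was kept at 22°C. Heating of the roots alone (HR) took them to 30°C, and heating of the shoots alone (HS) took these to 35°C. Heating of both (HRS) combined the 2 temperatures. Any organ not heated was kept at 22°C, which for HS meant cooling the roots with a cold water line in the warm chamber. The paper names a heating coil for the HR box only, and reports that soil reached 30°C in air of 35°C. Green leaves from the mid section were taken on day 1 and day 11 of a heat treatment of 11 days that began at first anthesis, at the same time of day on both days. The seeds came from heterozygous plants of the first generation grown from seed stock, so the plants were not an inbred line. Control and HR shared a growth chamber and HS and HRS shared another, with a separate box for each treatment. The heating of the shoots therefore cannot be told apart from the chamber, nor the treatment from the box.

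For each copy and comparison the table gives b, the difference between treatment and same-day control in the natural logarithm of normalized estimated counts, from 3 treated and 3 control plants. A b of 0.69 is close to a doubling. The error given with b below is its standard error (SE). The table holds 0 columns with values of single plants, so plants could not be listed, and whether groups overlap could not be seen. Group levels are geometric means over 3 plants rebuilt from b and the mean abundance, in normalized estimated counts per transcript. They are not divided by transcript length, so levels are compared between groups for one copy and not between copies. A transcript was called when its adjusted p (Benjamini-Hochberg over all tested transcripts of the comparison) was under 0.05 in a two-sided Wald z test on b and its SE. The number called by limma's moderated test, which allows for the small number of plants, is given beside it.

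Across the table, 30320 to 30731 transcripts were tested in a comparison. Group totals rebuilt from the table ranged from 1.36e+07 to 1.87e+07 estimated counts. Scaling to these totals in place of the scaling of sleuth would lower every day 1 b by 0.18 for HS and 0.13 for HRS, would raise every day 11 b by 0.24 for HS, and would move it by less than 0.1 in the other comparisons. Heat shock genes were taken as a check of the labels. On day 1 they were called higher in 22 of 38 tested transcripts with HS, 21 of 35 with HRS and 0 of 25 with HR. Of all transcripts, 14.1% were called higher with HS and with HRS and 0.356% with HR. The check was weaker on day 11. With HS, 6 of 27 were called higher and 0 lower, where 6.09% of all transcripts were called higher. With HRS, 3 of 27 were called higher and 2 lower, with a median b of -0.36, where 6.08% and 6.2% of all transcripts were. With HR, 0 of 26 were called. The small heat shock protein HSP17.6C (AUR62012170 and AUR62022806), highest by mean b over HS and HRS among those tested in all 6 comparisons, had b of 7.24 and 6.31 in HS on day 1. At the low end by that mean, 1 HSP25.3 copy (AUR62000521) had b of 0.17, while another (AUR62006016), named after its values were seen, had 7.39. The heat shock factor HSFA2 (AUR62039129) had b of -0.59 in HS on day 1, not called, and was the 1 transcript called lower in HRS on day 1 (b -0.74, adjusted p = 0.0147, 0.0215 by limma). The leaf label was checked with the light-harvesting chlorophyll proteins and with markers of other cell types. The floral identity transcripts matching AG and PI were tested in 0 comparisons, and no transcript matched the epidermal gene ATML1. The tested transcripts of the other cell type list summed to 10922 estimated counts in control and 13190 in HS on day 11, with 1 called higher and 0 lower of 22 (0 by limma). In HS on day 1, 3 of 24 were called higher and 1 lower, or 3 and 4 when scaled to total estimated counts. FAMA (AUR62004564), a factor of guard cells, was the highest of the list. Its day 1 b was 2.46 (SE 0.74) in HS and 2.35 (SE 0.68) in HRS, both called. This copy started from a low level, with 7.64 estimated counts in control and 95.3 in HS on day 1. Its day 11 b of -0.85 and 0.94 did not pass the test. In HRS on day 1, 1 of 24 was called higher and 2 lower. Both lower calls were copies of the phloem sucrose transporter SUC2, AUR62004667 (b -0.69) and AUR62023585 (b -0.55). Also called in HS on day 1 were the AP1 copy AUR62023162 (b 0.50), another FAMA copy, AUR62020815 (b 0.65), and the guard cell channel KAT1 (AUR62021243, b -0.60), and in HS on day 11 the epidermal PDF1 (AUR62017604, b 0.78). The SUC2, KAT1 and PDF1 transcripts and these copies of AP1 and FAMA were picked for their calls. At the ends of the list by mean b, the floral AP3 (AUR62007643) and AP1 (AUR62007887) and the phloem sugar transporter SWEET11 (AUR62036636) were not called in any of the 6 comparisons by the Wald test. The part of other cell types in the results was not tested.

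In control plants the RBCS and RCA copies stood higher on day 11 than on day 1. The ratio of the control level on day 11 to that on day 1 ranged from 1.67 for AUR62008993 to 13.1 for AUR62035539 among RBCS copies and was 3.72 for AUR62012129 and 2.49 for AUR62040707, the RCA copies. Over all transcripts the median of this difference was -0.036 on the natural log scale. The days were normalized in separate fits and were not compared by a test, so these ratios are a description. As a share of all estimated counts rebuilt from the table, the 11 transcripts held 2.48% in control on day 1 and 6.24% in control on day 11.

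**Figure D1:**
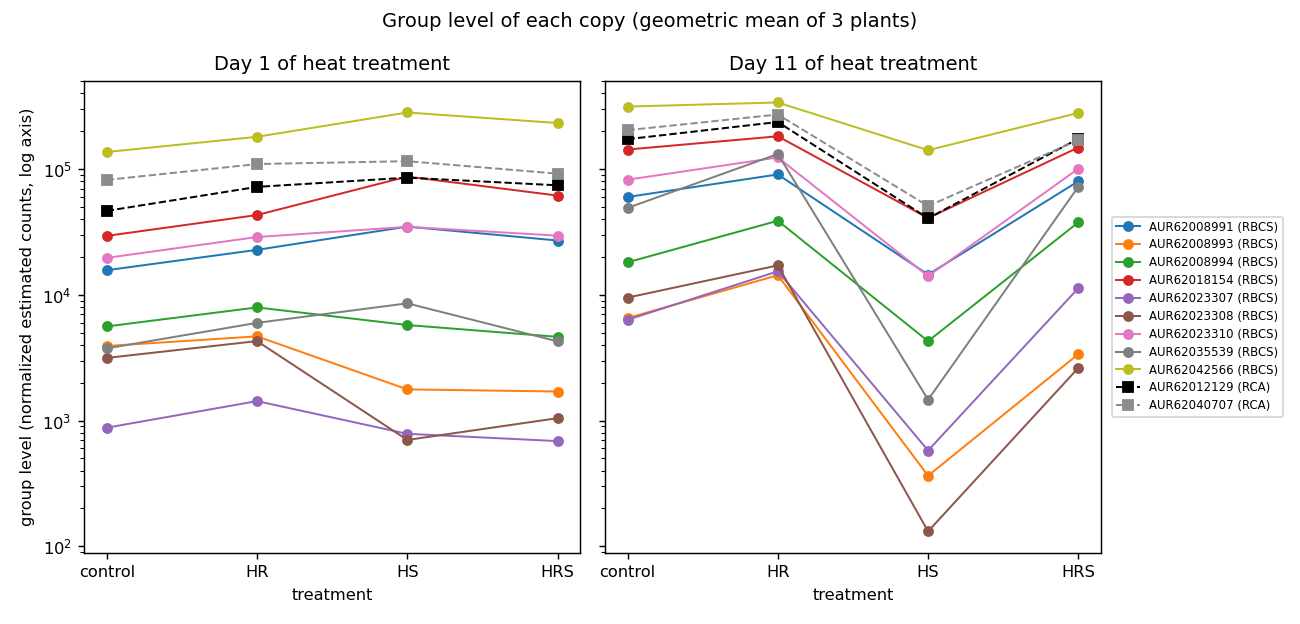
Level of each copy by treatment on day 1 (left) and day 11 (right). The vertical log axis is the geometric mean of 3 plants in normalized estimated counts, circles with solid lines are RBCS copies and squares with dashed lines are RCA copies. On day 11 every copy is lowest in HS, from 132 for AUR62023308 to 141194 for AUR62042566.

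After 1 day of shoot heating some RBCS copies were called higher and some lower. In HS, 5 of 9 RBCS copies and 1 of 2 RCA copies were called higher, and 2 RBCS copies were called lower. Of all tested transcripts, 14.1% were called higher and 12.3% lower. Among the 3016 at or above the abundance of the lowest copy, these shares were 28.9% and 19.5%, the second near that of the copies. Limma called 7 of the 11 copies, against 22.1% of all transcripts.

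The largest rise in HS was that of AUR62018154, whose levels on day 1, in the order control, HR, HS and HRS, were 29425, 43080, 87149 and 61528. Its b in HS was 1.09 (SE 0.18, adjusted p = 3.77e-08). From lowest to highest the order was thus control, HR, HRS and HS, where HR did not pass the test against control and HRS did not pass it against HS. AUR62008991 stood at 15692 in control and 34862 in HS (b 0.80, SE 0.12). AUR62023310 stood at 19665 in control and 34727 in HS (b 0.57, SE 0.12). Both of these copies had HR and HRS levels between those of control and HS.

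The other 2 RBCS copies called higher in HS rested on weaker evidence. AUR62042566 went from 136626 in control to 281635 in HS, with b 0.72 (SE 0.19) and an adjusted p of 0.0013, but the adjusted p of limma was 0.0586. AUR62035539 went from 3749 to 8557 with a wider error (b 0.83, SE 0.33, adjusted p = 0.0451), and it lost its call when scaled to total estimated counts.

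The copies called lower in HS on day 1 were AUR62008993 and AUR62023308. For AUR62023308 the levels of control, HR, HS and HRS were 3149, 4286, 701 and 1045, which gave b of -1.50 (SE 0.42) for HS. For AUR62008993 they were 3918, 4674, 1771 and 1703 in the same order, with b of -0.79 (SE 0.23) in HS. In leaf samples as a whole, fewer cells with a transcript and less of it per cell cannot be told apart. The last pair of RBCS copies was not called, with b of 0.03 (SE 0.09) for AUR62008994 and -0.11 (SE 0.46) for AUR62023307, and that of AUR62008994 changed sign when scaled to total estimated counts.

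Both RCA copies had positive b in HS on day 1. AUR62012129 stood at 46504, 72147, 85418 and 74267 in the same order of groups, and its b in HS was 0.61 (SE 0.14, adjusted p = 0.000234, 0.0257 by limma). AUR62040707 stood at 81982, 109622, 115491 and 91944, and its b of 0.34 (SE 0.16) in HS did not pass the test (adjusted p = 0.103).

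When roots were heated together with shoots for 1 day, fewer copies passed the test. In HRS, 2 RBCS copies and 1 RCA copy were called higher and 2 RBCS copies lower, where 14.1% of all tested transcripts were called higher and 12.5% lower. At or above the abundance of the lowest copy the shares were 25.7% and 21.7%, near those of the copies. The copies higher in HRS were AUR62018154 (b 0.74, SE 0.24), AUR62008991 (b 0.54, SE 0.14) and the RCA copy AUR62012129 (b 0.47, SE 0.16), of which the last was not called by limma (adjusted p = 0.109) or when scaled to total estimated counts. The copies lower in HRS were again AUR62008993 (b -0.83, SE 0.17) and AUR62023308, at a ratio of 0.332 to control (SE of b 0.37). Scaled to total estimated counts, AUR62008994 was called lower too (b -0.32, adjusted p = 0.0124), so the counts became 2 higher and 3 lower. Limma called 4 copies, against 22.7% of all transcripts.

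Root heating alone gave no call on day 1. In HR, b was positive for all 11 copies and ranged from 0.18 for AUR62008993 to 0.49 for AUR62023307. Of these, 0 were called by the Wald test and 0 by limma, and 4 had an unadjusted p under 0.05 by either test. Of all 30320 tested transcripts, 2380 had such a p by the Wald test and 2322 by limma. Among all tested transcripts 0.567% were called by the Wald test. The smallest adjusted p was 0.217, for AUR62008991 (b 0.37, SE 0.13).

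HRS and HS were compared directly. Because the HS roots were cooled, this difference sets warm, uncooled roots against cooled roots under heated shoots. It is not the effect of a root heater added to shoot heating. Because the fits share control plants, the largest SE that their residual variances allow was used for such differences. On day 1, 0 of the 11 copies differed between HRS and HS, beside 0.0534% of all transcripts called. An unadjusted p under 0.05 was reached by 0 copies, beside 701 of all 29988 transcripts. The differences ranged from -0.70 (SE 0.61) for AUR62035539 to 0.40 (SE 0.56) for AUR62023308. For AUR62018154 the 95% interval of HRS minus HS was -0.94 to 0.25, which leaves room for a fall to 0.389 of the HS level or a rise to 1.28 of it. The interaction, HRS minus HS minus HR, was called for 0 copies on day 1, where 0.0101% of all transcripts were called. It had an unadjusted p under 0.05 in 4 copies, beside 1392 of all 29634 transcripts.

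**Figure D2:**
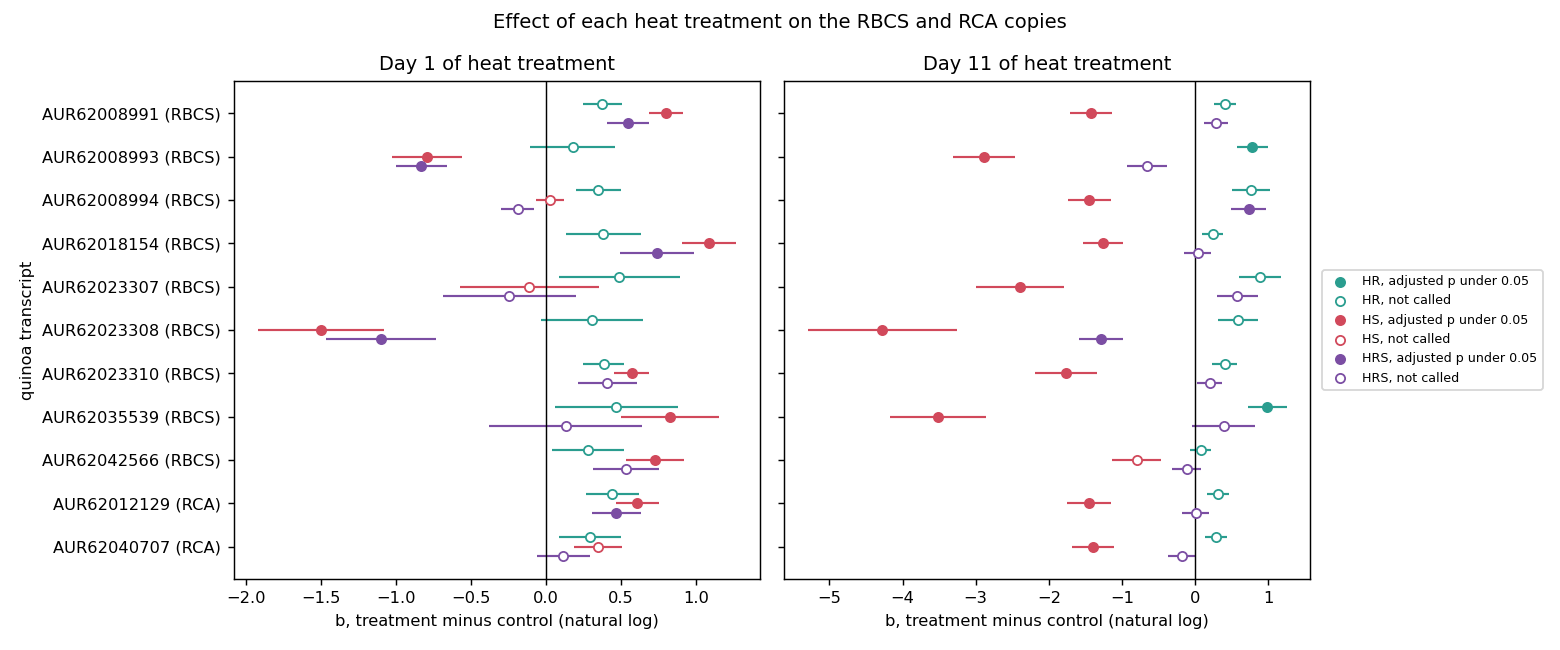
Effect of each treatment on each copy on day 1 (left) and day 11 (right). The horizontal axis is b, treatment minus same-day control on the natural log scale, bars are 1 SE from 3 treated and 3 control plants, and filled points passed an adjusted p of 0.05 in the Wald test. On day 11 all 11 HS points lie below 0 and all 11 HR points above it.

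After 11 days of shoot heating alone, RBCS and RCA transcripts stood lower together than in control of the same day. A fall on day 11 here means a level below that control, not a loss since day 1. In HS on day 11 the summed level was 217348 for RBCS and 91395 for RCA, beside 218710 and 128486 in control on day 1. Single copies went either way, as AUR62042566 (141194, beside 136626) and AUR62023308 (132, beside 3149) show. Levels were not tested between days. In HS on day 11, 10 of 11 copies were called lower and 0 higher, where 7.49% of all tested transcripts were called lower and 6.09% higher. Limma called 7 copies lower, all of them RBCS, against 4.95% of all transcripts called. The median b over the 11 copies was -1.45, beside -0.00067 over all tested transcripts. The same 10 copies were called lower when scaled to total estimated counts, where every b was 0.24 higher. Among the 1953 tested transcripts at or above the abundance of the lowest copy, 24.3% were called lower and 3.48% higher.

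The deepest falls were in 3 RBCS copies. For AUR62023308 the control, HR, HS and HRS levels were 9499, 17138, 132 and 2626, and b for HS was -4.28 (SE 1.02, adjusted p = 0.000831). The level of AUR62035539 was 49058, 131624, 1465 and 72402 in the same order, with b of -3.51 (SE 0.66, adjusted p = 9.35e-06). For AUR62008993 the levels were 6533, 14314, 364 and 3377, with b of -2.89 (SE 0.42, adjusted p = 1.91e-09). In HS these copies were 71.9-fold, 33.5-fold and 17.9-fold lower than in control.

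AUR62023307 followed, from 6331 in control to 578 in HS (b -2.39, SE 0.60). The remaining RBCS copies were less far below control of the same day, whose level is given first. AUR62023310 went from 82257 to 14082 (b -1.76, SE 0.42), AUR62008994 from 18129 to 4281 (b -1.44, SE 0.30) and AUR62008991 from 59982 to 14483 (b -1.42, SE 0.28). AUR62018154, the copy with the largest rise on day 1, went from 142986 to 40770 (b -1.25, SE 0.27), and its adjusted p by limma was 0.0847. AUR62042566 stood at 313914, 338308, 141194 and 279438 in the order used above. It was the 1 copy not called in HS on day 11 (b -0.80, SE 0.33, adjusted p = 0.0888).

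The RCA copies were called lower in HS on day 11 by the Wald test and not by limma. Control, HR, HS and HRS levels of AUR62012129 were 172833, 236615, 40612 and 174217. Its b in HS was -1.45 (SE 0.30, adjusted p = 8.89e-05, 0.0732 by limma). Those of AUR62040707 were 203847, 271321, 50783 and 170049. Its b in HS was -1.39 (SE 0.29, adjusted p = 7.85e-05, 0.086 by limma). Both RCA copies were thus close to 4-fold lower than in control, 4.26-fold and 4.01-fold.

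For most copies the HS plants of day 11 also differed more from each other than the plants of the other day 11 groups did. The residual variance of the HS fit was the largest of the day 11 fits for all 11 copies, against 36.9% of all transcripts tested in the 3 fits. On day 1 it was the largest for 2 of 11 copies, against 35.4% of all transcripts. Since the fits of one day share their control plants, the residual variances bound the standard deviation (SD) among the 3 plants of each group. For 10 of 11 copies, all but AUR62008994, the lowest SD that the variances allow for HS was above the highest they allow for HRS, for HR and for control. The share of all transcripts for which this holds was not counted. The copies were read in the same 3 plants of each group, so they are not separate observations of the spread. For the RCA copy AUR62012129 the SD among HS plants lay between 0.51 and 0.52 on the natural log scale, while that of control was at most 0.12, of HR at most 0.12 and of HRS at most 0.14. For AUR62023308 it lay between 1.70 and 1.76, with at most 0.48 in control and 0.52 in HRS. The HS mean of day 11 was therefore not shared closely by its plants, and which plants were high or low is not shown by the table. Over the 66 combinations of copy and comparison, the variance from read assignment was at most 14.9% of the residual variance, with a median of 0.0724%. Little of the spread thus came from read assignment. In the rest, differences between plants cannot be told apart from those made by RNA extraction, library making and sequencing.

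**Figure D3:**
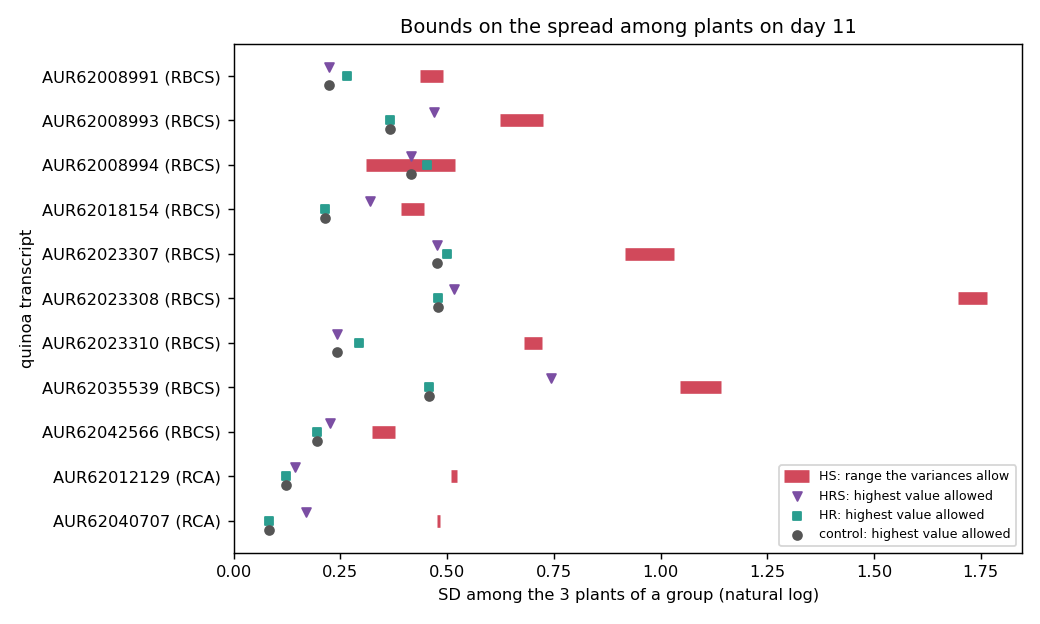
Spread among the plants of each group on day 11. The horizontal axis is the SD among 3 plants on the natural log scale, red bars span the range allowed for HS and symbols mark the highest value allowed for HRS, HR and control. The HS bar starts to the right of all symbols for 10 copies, the exception being AUR62008994, where it begins at 0.31.

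With roots and shoots both heated, the levels of most copies on day 11 stood nearer to control than in HS. In HRS on day 11, 1 RBCS copy was called higher and 1 lower, and 0 RCA copies were called, where 6.08% of all tested transcripts were called higher and 6.2% lower. At or above the abundance of the lowest copy, both shares were 8.46% of 390 transcripts. The copy called higher was AUR62008994, at 18129 in control and 37707 in HRS (b 0.73, SE 0.24, adjusted p = 0.0248), and limma did not call it (adjusted p = 0.0994). The copy called lower was AUR62023308, with b of -1.29 (SE 0.30, adjusted p = 0.000524, 0.0264 by limma), the 1 copy called by limma, against 5.55% of all transcripts. The remaining b in HRS ranged from -0.66 (SE 0.27) for AUR62008993 to 0.58 (SE 0.27) for AUR62023307. For the RCA copies b was 0.01 (95% interval -0.35 to 0.37) for AUR62012129, whose sign turned when scaled to total estimated counts, and -0.18 (-0.54 to 0.18) for AUR62040707.

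The difference between HRS and HS on day 11 was itself tested. RBCS and RCA transcripts were higher in HRS than in HS in 9 of 11 copies by the z test, where 2.85% of all transcripts were called higher. Limma moderated the summed residual variances itself, and its SE for the RCA copies was 0.58 to 0.61, against 0.34 to 0.35 in the z test. It called 0 of the 11 and 0 of all 29947 transcripts. Its smallest adjusted p among the copies was 0.0963, with 9 copies at an unadjusted p under 0.05, beside 4525 of all transcripts. The largest difference was in AUR62035539 (3.90, SE 0.79, adjusted p = 0.000344), a ratio of 49.4 between HRS and HS. The smallest among the called copies was in the RCA copy AUR62040707 (1.21, SE 0.34, adjusted p = 0.0199), a ratio of 3.35, and it was not called when scaled to total estimated counts (adjusted p = 0.0682). The RCA copy AUR62012129 differed by 1.46 (SE 0.35, adjusted p = 0.00447). Not called were AUR62023308 (2.99, SE 1.06, adjusted p = 0.0869) and AUR62042566 (0.68, SE 0.39, adjusted p = 0.406).

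Root heating alone gave few calls on day 11. In HR, b was positive for all 11 copies, from 0.07 (SE 0.15) for AUR62042566, whose b turned to -0.01 when scaled to total estimated counts, to 0.99 (SE 0.26) for AUR62035539. By the Wald test 2 RBCS copies were called higher, AUR62035539 (adjusted p = 0.0292) and AUR62008993 (b 0.78, SE 0.21, adjusted p = 0.0316), where 0.34% of all tested transcripts were called higher and 0.539% lower. Limma called 0 copies and 0 of all transcripts, with 5 copies at an unadjusted p under 0.05, beside 3379 of all 30588 transcripts. The RCA copies had b of 0.31 (SE 0.14) and 0.29 (SE 0.15) and were not called.

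The interaction on day 11 was positive in all 11 copies, from 0.61 (SE 0.41) for AUR62042566 to 2.91 (SE 0.83) for AUR62035539. An unadjusted p under 0.05 was reached by 10 copies in the z test and 7 by limma, beside 1353 and 1444 of all transcripts. After adjustment, 0 copies passed by either test, beside 0.0371% of all transcripts by the z test and 1 transcript of 29676 by limma. AUR62008991 came nearest, with an adjusted p of 0.404 by the z test and an interaction that is a ratio of 3.66 (95% interval 0.59 to 2.01 on the natural log scale).

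**Figure D4:**
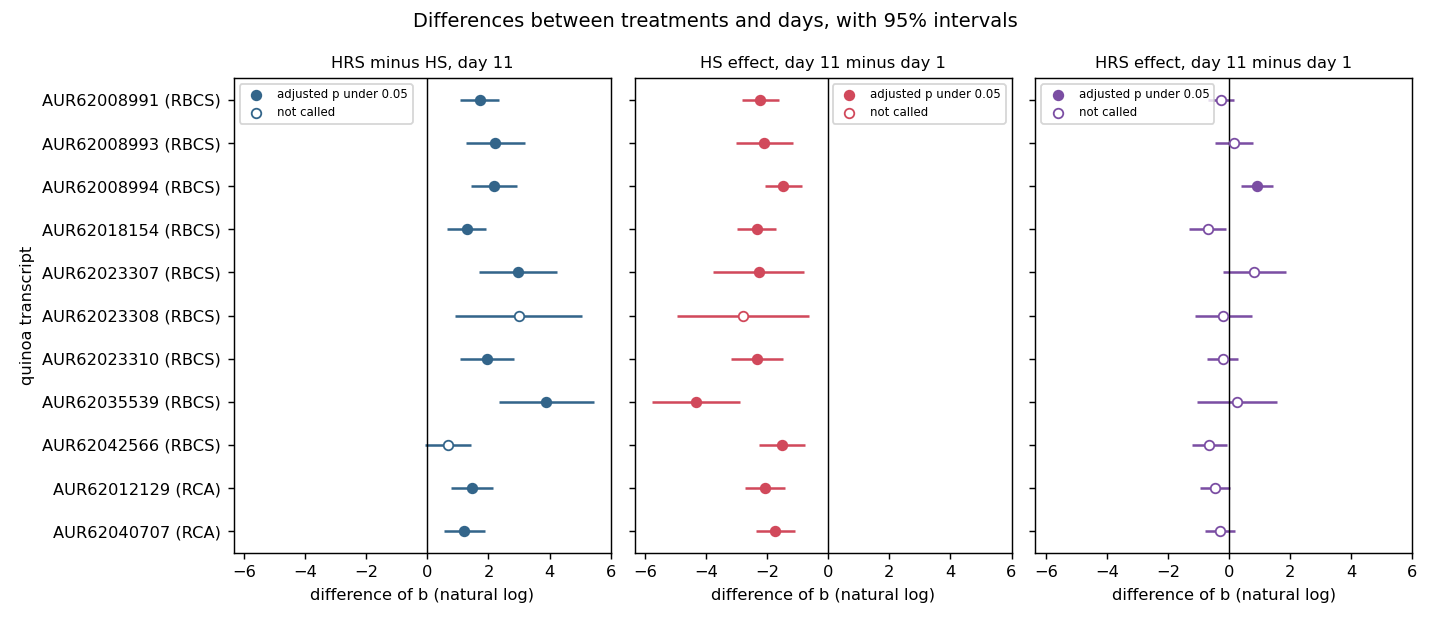
Differences between treatments and days for each copy. The left panel is HRS minus HS on day 11, the middle panel the HS effect on day 11 minus that on day 1 and the right panel the same for HRS, on the natural log scale with 95% intervals, and filled points passed an adjusted p of 0.05 in the z test. In the middle panel all 11 intervals lie below 0, from -4.34 for AUR62035539 to -1.47 for AUR62008994.

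The effect of shoot heating on RBCS and RCA transcripts differed between the days. The HS effect was lower on day 11 than on day 1 in 10 of 11 copies by the z test, and limma called 9, against 9.31% of all transcripts called lower by the z test and 12.5% called in either direction by limma. For AUR62018154 the effect moved by -2.34 (SE 0.33, adjusted p = 1.65e-10), from a rise on day 1 to a fall on day 11. For AUR62035539 it moved by -4.34 (SE 0.74, adjusted p = 2.87e-07), also from a rise to a fall. The RCA copies moved by -2.06 (SE 0.33) and -1.73 (SE 0.33). The copy not called was AUR62023308 (-2.77, 95% interval -4.93 to -0.61, adjusted p = 0.0718), which was called lower in HS on both days. In HRS, 1 copy had a higher effect on day 11, AUR62008994 (0.92, SE 0.26, adjusted p = 0.0112, 0.0518 by limma), where 2.18% of all transcripts were called higher. In HR, 0 copies differed between days, beside 0.0204% of all transcripts. An unadjusted p under 0.05 was reached by 0 copies, beside 1664 of all 29439 transcripts. The control levels of the copies differ between the days too, so these are differences between effects and not between levels.

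Near-identical copies can exchange reads in counting, so the levels were also summed within each family. The summed RBCS level relative to control, for HR, HS and HRS in turn, was 1.37, 2.08 and 1.66 on day 1 and 1.38, 0.316 and 1.07 on day 11. For summed RCA these ratios were 1.41, 1.56 and 1.29 on day 1 and 1.35, 0.243 and 0.914 on day 11. The sums have no test, as they are built from group means. Without its copy of highest count, the RBCS sum in HS on day 11 was 0.203 of control, and scaled to total estimated counts it was 0.402. On day 1 the 11 transcripts together held 3.94% of all estimated counts in HS, against 2.48% in control. On day 11 the RBCS copies held 4.03% in control, 1.62% in HS and 4.26% in HRS, and the RCA copies 2.21%, 0.682% and 1.99%.

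The make-up of the RBCS sum moved with treatment. On day 11 AUR62042566 held 45.6% of the RBCS estimated counts in control and 65.0% in HS, with 35.5% and 38.0% in HR and HRS. AUR62035539 held 7.12% in control and 0.674% in HS, with 13.8% and 9.84% in HR and HRS. On day 1 the share of AUR62042566 was between 60.3% and 64.0% in all treatments. Of the RCA sum, AUR62012129 held 45.9% in control and 44.4% in HS on day 11. These shares follow 1 copy across groups and do not rank the copies.

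The copies did not all follow one course over the 6 comparisons. By Euclidean distance over the 6 values of b, the copy nearest to AUR62008991 was the RCA copy AUR62012129, at 0.37, and the copy nearest to AUR62023310 was the same RCA copy, at 0.39. AUR62008993 and AUR62023308, both called lower in HS and HRS on day 1, had nearest distances of 1.64 and 1.72, and AUR62035539, not called lower on day 1, one of 1.52. These distances are descriptions, since the comparisons of one day share control plants.

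Genes that work beside Rubisco were read from lists, each given as the number of tested transcripts called higher and lower by the Wald test, with limma beside it. The shares of all tested transcripts given above for each comparison are the background of these counts. No test compared one list with another or with the copies. The other Calvin cycle enzymes, which carry fixed carbon through the cycle, followed the RBCS and RCA copies in part. In HS, 18 of 34 tested transcripts were called higher and 2 lower on day 1 (16 and 2 by limma), and 0 higher and 20 lower on day 11 (0 and 14 by limma). Scaled to total estimated counts, these HS counts were 11 higher and 3 lower on day 1 and 4 higher and 16 lower on day 11. In HRS on day 11, 1 was called higher and 4 lower. The lowest of the list over HS and HRS were 2 transcripts matching the aldolase FBA3, AUR62000564 with b of -1.45 (SE 0.18) in HRS on day 11 and AUR62033531, which was not called. The highest were the transketolases TKL1 (AUR62041384) and TKL2 (AUR62004194), with b of 0.74 and 0.77 in HS on day 1, both called. In HS on day 11 their b was -0.60 (called, 0.113 by limma) and 0.15.

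Light-harvesting chlorophyll proteins, which feed light energy to the photosystems, were called in the same directions as most RBCS and RCA copies. In HS, 19 of 25 transcripts were called higher on day 1 and 23 lower on day 11 (17 and 11 by limma), and 0 were called in the other direction. On day 11 in HRS, 8 were called lower (0 by limma), and 12 of 25 were higher in HRS than in HS (0 by limma). Their median b in HS was 0.58 on day 1 and -1.25 on day 11. The lowest were 2 transcripts matching LHCB1.3, AUR62027587 and AUR62030254, with b of -2.22 and -2.13 in HS on day 11. The highest, LHCB2.1 (AUR62015046) and LHCA4 (AUR62008430), had b of 0.93 and 0.89 in HS on day 1 and -1.25 and -0.95 on day 11.

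The proteins that fold and assemble Rubisco were mostly called higher on day 1, and few were called on day 11. These are the chaperonin subunits CPN60, the cochaperonins CPN20 and CPN10, assembly factors such as RBCX and BSD2, and others that act on Rubisco or its messenger RNA. On day 1, 22 of 31 transcripts were called higher and 1 lower in HS, and 21 higher and 0 lower in HRS, and limma gave the same counts. On day 11 only 1 was called higher and 4 lower in HS, and 7 higher and 0 lower in HRS (1 and 2, and 5 and 0, by limma). In HS on day 11 the counts turned to 5 higher and 2 lower when scaled to total estimated counts. The HS effect was lower on day 11 than on day 1 in 16 of 31 and higher in 1 (13 and 1 by limma), the direction of most RBCS and RCA copies. For HRS minus HS on day 11, 4 were called higher and 0 lower (0 by limma). The 2 transcripts of CPN20, AUR62028287 and AUR62025283, had b of 2.52 and 2.46 in HS on day 1. The transcripts of RBCX2, AUR62000123 and AUR62019304, had b of 0.14 and 0.26, of which the second was called. The median b of the list in HS on day 11 was 0.02, where that of the RBCS and RCA copies was -1.45.

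The import machinery that brings the small subunit precursor into the chloroplast was called higher in HRS on both days. In HRS, 9 of 12 transcripts were called higher on day 1 and 9 on day 11, with 0 lower (8 and 9 by limma). Scaled to total estimated counts, the HRS counts were 7 higher and 1 lower on day 1 and 9 higher and 0 lower on day 11. In HS, 6 were called higher and 1 lower on day 1, and 0 in either direction on day 11 by the Wald test and by limma. With the same scaling, the HS counts were 4 higher and 1 lower on day 1 and 4 higher and 0 lower on day 11. The pore protein TOC75 (AUR62020025) had b of 1.19 (SE 0.38) and the receptor TOC34 (AUR62010114) 0.92 (SE 0.13) in HRS on day 11. The processing peptidase SPP, with AUR62011864 and AUR62024707, had b of -0.26 (SE 0.13) and -0.06 (SE 0.18) there and was not called. For HRS minus HS on day 11, 0 of the 12 import transcripts were called.

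Regulators of photosynthesis genes, here the matches of GLK1, HY5, HYH, CGA1 and the clock factor LHY, were called higher in 7 of 9 transcripts and lower in 1 in HS on day 1. By limma these counts were 5 and 1, and scaled to total estimated counts 4 and 1. On day 11 in HS, 1 of 10 was called higher and 0 lower (0 by limma). HY5 (AUR62024899), a light signalling factor, was the one called, with b of 0.58 (adjusted p = 0.00392, 0.0673 by limma), and CGA1 (AUR62022078), a GATA factor, had b of 0.73 on day 1 (called) and 0.16 on day 11. The clock factor LHY (AUR62004570) had b of 0.30 on day 1 and -0.38 on day 11 in HS, of which the first was called (adjusted p = 0.0492, 0.158 by limma). HYH (AUR62023672), a relative of HY5, was called lower in HS on day 1 (b -0.44). In HRS, 5 of 9 transcripts were called higher and 1 lower on day 1 (4 and 1 by limma). On day 11 in HRS, 3 of 10 were called higher and 0 lower (0 by limma). Among these 3 was the same HYH copy (b 0.51, adjusted p = 0.00362, 0.0566 by limma).

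Leaf senescence genes were read beside the fall of the copies in HS on day 11. Of 7 tested transcripts, 0 were called in HS on day 11 by either test, with a median b of 0.72, and 3 were called higher when scaled to total estimated counts. The transcripts of NAP (AUR62032816 and AUR62005821), a transcription factor of senescence, had b of 1.43 (SE 0.83) and 0.88 (SE 0.58) in HS on day 11. That of SAG12 (AUR62043333), a protease of late senescence, was -1.64 (SE 0.84), and that of PAO (AUR62029149), an enzyme of chlorophyll breakdown, was 0.14 (SE 0.24). Of the 7, SAG12 was the 1 with a negative b in HS on day 11. In HR on day 11, SAG12 was called lower (b -3.42, adjusted p = 0.023), and not by limma (adjusted p = 0.362). Its heated levels were low, with 142 estimated counts in control and 4.17 in HR, and 136 and 3.35 in the fit of HRS. In HRS on day 11, 4 of 7 were called lower (1 by limma), among them SAG12 (b -3.57, SE 1.18) and PAO (b -0.63, SE 0.16). For HRS minus HS on day 11, 3 of 7 were called lower and 0 by limma, where 1.02% of all transcripts were called lower. The part of leaf age in the RBCS and RCA values was not tested.

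**Figure D5:**
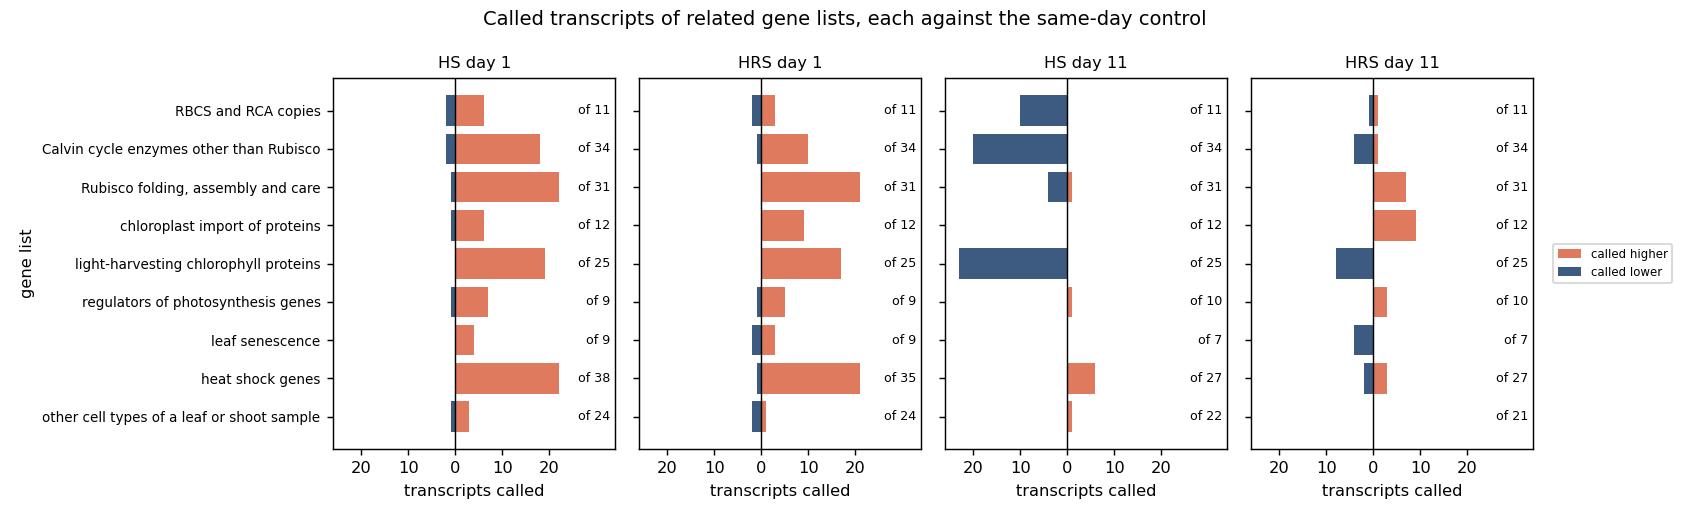
Transcripts called higher (right of 0) and lower (left of 0) than the same-day control for the RBCS and RCA copies and 8 gene lists in HS and HRS on days 1 and 11. Bars count transcripts past an adjusted p of 0.05 in the Wald test, and the number tested stands at the right. In HS on day 11 the bars of the copies (10 of 11), the light-harvesting proteins (23 of 25) and the Calvin cycle enzymes (20 of 34) point to lower, and the import list has no bar.

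Among the 14348 transcripts tested in all 6 comparisons and above the median abundance, those with b most like the RBCS median were searched by Euclidean distance over the 6 values. The nearest was AUR62011519, whose match is ROD1, an enzyme of lipid metabolism, at a distance of 0.52. It was followed by AUR62015876, matching CSP41A, a chloroplast RNA-binding protein, at 0.53 and AUR62021672, matching CHLP, which makes the phytol precursor of chlorophyll, at 0.57. Then came AUR62029718 and AUR62029719, both matching the lipid-transfer protein LTP4, with identical values and a distance of 0.58. For the RCA copies the nearest were PSAF (AUR62010064), LHCB5 (AUR62004407), CHLP (AUR62021672), PSBW (AUR62011936) and FTSZ2-1 (AUR62028533), at 0.21 to 0.22. PSAF and PSBW are subunits of photosystems I and II, LHCB5 is a light-harvesting protein and FTSZ2-1 takes part in chloroplast division. In HS on day 11, b was -1.46 for PSAF and -1.42 for CHLP.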

How the data were processed

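Leaf RNA of 24 plants was sequenced, 3 plants in each of 8 groups. Reads were trimmed by the authors (trimmomatic) and assigned to the quinoa transcriptome by pseudoalignment (kallisto, with resampled assignments). Per the labels, sleuth 0.30.0 made the fits, each of 1 treatment against its same-day control. The deposited table gives, for each comparison, b and its SE on the natural log scale, with the mean abundance and the parts of the variance, all as natural log values of normalized estimated counts. Its 12 columns of p-values and q-values, which hold the authors' own calls, were not used. Pseudoalignment can split reads among near-identical copies. Depth was read only as rebuilt totals. In the paper's read statistics, each HS library of day 11 had smaller percentages of pseudoaligned and of unique reads than every other day 11 library. The part of this in the levels and spread of HS on day 11 was not tested.

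From b and its SE, Wald z tests were computed and adjusted by Benjamini-Hochberg over all tested transcripts. HRS minus HS and the interaction used the largest SE that the residual variances allow, and the days were compared with the root of the summed squared SEs. The residual variances and b were also passed to limma 3.58.1 under R 4.3.3, with a trend over abundance. Group levels were rebuilt with the pseudocount of 0.5. The scripts were tested on simulated data. Other software was scipy 1.17.1, matplotlib 3.10.9, pandas 2.3.3 and numpy 2.4.6 in Python 3.11.15.

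The members, the 8 lists and the tests were chosen with earlier results of these data known. From each list, the 2 highest and the 2 lowest transcripts by mean b over HS and HRS were named among those tested in all 6 comparisons, and every RBCS and RCA copy. Alternatives were limma, a t distribution, the SE without shrinkage, 2 scalings to total counts, centring on abundant transcripts, a filter on abundance, a minimum b of ln 2, thresholds of 0.1 and 0.01, p adjusted across the 6 comparisons together and equal spread in every group. Total scaling of HRS minus HS, of the interaction and of the lists, and limma on the lists, were chosen after seeing the data. The reference gene table matched 0 transcript identifiers, so no sequence is shown.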

Additional observations from a re-analysis of the deposited data

Results flagged for a closer look

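The effect of HS differed between day 11 and day 1 in 10 copies, by the z test of the difference itself. The difference, day 11 minus day 1 on the natural log scale, was -2.22 for AUR62008991, -2.09 for AUR62008993, -1.47 for AUR62008994, -2.34 for AUR62018154, -2.28 for AUR62023307, -2.33 for AUR62023310, -4.34 for AUR62035539 and -1.52 for AUR62042566. For the RCA copies it was -2.06 for AUR62012129 and -1.73 for AUR62040707. In HRS the effect differed between days in 1 copy, AUR62008994, by 0.92. By limma, the differences of AUR62042566 in HS (adjusted p = 0.058) and of AUR62008994 in HRS (adjusted p = 0.0518) did not pass.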

How the results depend on the processing

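Under the alternatives, 825 of the values of single copies kept their direction and their side of the threshold, 65 lost a call, 24 gained one and 10 changed sign. With a t distribution with 4 degrees of freedom, 0 copies were called in HS and HRS on either day and in HR on day 11, although 10 copies in HS on day 11 kept an unadjusted p under 0.05. Among all transcripts, this test called 1 for HS and 307 for HRS on day 1, and 0 under each treatment on day 11. It called so few that a count of 0 copies does not set them apart. By limma the count was 0 in HR on day 11, 1 in HRS on day 11, 0 for HRS minus HS on day 11 and 0 for the day difference of HRS. In the same order, limma called 0, 1683, 0 and 1484 of all transcripts. With the SE without shrinkage, 3 copies were called in HR on day 1 and 6 on day 11, beside 1754 and 2254 of all transcripts. The main test called 172 and 269 of all transcripts there. Adjusted over all 6 comparisons, 2 and 4 copies were called in HR on day 1 and day 11, beside 720 and 955 of all transcripts. At a threshold of 0.01, 2 copies remained in HRS on day 1, 0 in HR on day 11 and 1 in HRS on day 11. Of all transcripts, 5725, 88 and 2088 passed it in the same order. With b of at least ln 2, 3 copies remained in HRS on day 1, beside 3269 of all transcripts. Either total scaling left 1 copy in HR on day 11, beside 457 of all transcripts, or 402 with the members left out of the total. Equal spread in every group gave 3 calls of the interaction on day 11, beside 102 of all transcripts. The cause of these changes was not tested.

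Scaled to total estimated counts, b turned to -0.15 for AUR62008994 in HS on day 1, -0.0046 for AUR62035539 and -0.019 for AUR62040707 in HRS on day 1, -0.011 for AUR62042566 in HR on day 11 and -0.0041 for AUR62012129 in HRS on day 11. HRS minus HS on day 1 turned to 0.0037 for AUR62008993, and the day difference in HR to 0.0014 for AUR62040707. With the members left out of the total, b turned to -0.14 for AUR62008994 in HS on day 1, -0.010 for AUR62040707 in HRS on day 1 and -0.0040 for AUR62012129 in HRS on day 11. None of these was called. The ln ratio of summed RCA in HS on day 1 was 0.447, and it was 0.608 without the most abundant copy and 0.271 scaled to total estimated counts. In HRS on day 1 it was 0.257, and 0.468 without that copy.

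No paired analysis was possible because each group held different plants, and replicate numbers only count the plants within a group. Leaving out each replicate in turn was not run, since the table holds no values of single plants.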
